A study of Rattus norvegicus with 9 samples.

Results

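The BCL2 family decides at the outer mitochondrial membrane whether a stressed cell lives or dies, and its transcripts were followed here in rat aortic smooth muscle cells (RASMC) whose sodium pump had been stopped in either of 2 ways. The 10 members considered were the guardians Bcl2, Bcl2l1 (Bcl-x) and Mcl1, the pore-forming effectors Bax and Bak1, and the BH3-only genes Bid, Bcl2l11 (Bim), Pmaip1 (Noxa), Bad and Bbc3 (Puma). A member was taken from the array when a probe set carried its symbol and no other, and where a member had 2 such probe sets the one with the higher mean over the 9 arrays stood for it. This gave 9 of the 10 members among 14324 genes with a symbol of their own; Bbc3 had no probe set of that kind and is not analysed here. Bax and Bcl2l1 had 2 probe sets each. In both genes the brighter set, which stood for the gene, is annotated to a GenBank mRNA and to no RefSeq transcript. The RefSeq transcripts are annotated to the dimmer set. Where each set maps in the genome was not checked, so values of both sets are given below.

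RNA came from quiescent RASMC, purchased primary cells of fewer than 10 passages that had been grown in 10% fetal bovine serum and then kept for 24 hr in 0.2% serum. A wash in DMEM lacking K+ preceded treatment in every group, controls included. The groups then spent 6 hr in 1 of 3 media, namely control DMEM (Control), the same with ouabain at 3 mM (Ouabain) and K+-free DMEM (K_Free). Ouabain binds the α subunit of the Na+,K+-ATPase and blocks it, whereas removal of extracellular K+ takes away the ion that the pump carries inward, and the study used both to raise the ratio of intracellular Na+ to K+. Each group had 3 Affymetrix Rat Gene 1.0 ST arrays, which the study's methods describe as independent experiments, and the files hold a log2 signal for each of 27342 probe sets.

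Guardians hold the effectors in check by binding them, and BH3-only proteins, switched on by different kinds of stress, occupy the guardians or act on the effectors. Once released, Bax and Bak1 open the outer membrane, cytochrome c leaves the mitochondrion, and Apaf1 and caspase 9 start the caspase cascade. Much of this control acts on the proteins, by cleavage, phosphorylation and turnover, and none of it is seen by an array of mRNA. The array also does not separate splice forms of 1 gene, such as the long protective and the short death-promoting form of Bcl2l1.

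Promoters of 8 members, from 250 bases before to 50 bases after each annotated start (RefSeq, GRCr8), were searched on both strands for response elements of pathways known to reach this family. Bax and Bbc3 were not in the promoter table, and Bcl2l1 had 4 entries. The windows printed here hold the matches that more than 1 member had in common, other than the hypoxia cores. Each is 30 bases long and runs 5′ to 3′ on the strand of its gene, with the match in capitals.

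Bcl2, chr13:23367121-23367150, minus strand: ttggttTGATGTAActttcaatggacgcgt
Bcl2l1, chr3:161764928-161764957, minus strand: aggaactagatTGATGGAAtgtgaaccatt
Bcl2l1, second start, chr3:161763421-161763450, minus strand: taaaaagaggcTGATGAAAcaattcaaagc
Mcl1, chr2:185908100-185908129, plus strand: aagtcctcgcttgCGTCAgagcggccctaa
Pmaip1, chr18:62255898-62255927, plus strand: cgaggtgtCGTCAtattaCGTCAtattacc
Bcl2l11, chr3:135819826-135819855, plus strand: caagtcactaggGTAAACAcgccggggtgg
Bad, chr1:213562984-213563013, plus strand: taatcactaagcTGTTTACagagttttcac

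The guardians Bcl2 and Bcl2l1 both held the amino acid response letters TGATGNAA, which 3.98% of all 33469 promoters of this length contained. The match in Bcl2 began 244 bases before its start, and those in Bcl2l1 began 171 and 189 bases before 2 of its starts. The latter match also lay 54 bases before another annotated start of Bcl2l1. The share is counted over promoter entries, of which Bcl2l1 had 4 and Bcl2 had 1. Mcl1 and Pmaip1 held the CRE half-site TGACG, read here on the other strand as CGTCA; it stood 55 bases before the start of Mcl1 and, as 2 copies, 64 and 54 bases before that of Pmaip1. This half-site was common, being present in 21.2% of promoters. The FOXO letters GTAAACA, present in 3.78% of promoters, occurred in Bcl2l11 204 bases before the start and, on the other strand, in Bad 118 bases before the start. In Bcl2l11 a copy of the hypoxia core GCGTG overlapped the FOXO letters.

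Of the hypoxia cores, ACGTG (19.3% of promoters) was found in Bcl2 and Bcl2l1, and GCGTG (29.7%) in Bcl2l1, Bcl2l11 and Bad. Bak1 and Bid held none of the motifs given here. AP-1 (TGANTCA, 7.33% of promoters) and the E-box CACGTG (6.42%), whose letters contain ACGTG, had no match in the 8 members. These are letters in a 300-base window and say nothing of binding.

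Most of the measured members differed from control in each treatment. In ouabain, 6 of the 9 measured members rose and 2 fell (Bak1 and Bad), the 9 having a median log2 difference of 0.60. In K+-free medium 7 rose and 1 fell (Bad), with a median of 0.99. A member was counted when its difference of mean log2 signals passed an adjusted p of 0.05 in limma, with Benjamini-Hochberg adjustment over all probe sets, and the fold was above 1.2. By the same rule 15.8% of all probe sets were higher with ouabain and 16.8% lower, against 16.1% higher and 17.9% lower without external K+, and the medians over all probe sets were 0.07 and 0.06. With arrays centred on B2m the members split as 5 higher and 3 lower in ouabain and as 6 and 2 in K+-free medium, and with centring on reference genes as 6 and 3 and as 6 and 2. Treated and control arrays did not overlap for any of the 9 members in either treatment, a separation seen for 54.2% of probe sets in ouabain and 57.1% in K+-free medium. The 2 treatments share their 3 control arrays, so the differences from control are not independent of each other. In bulk RNA, fewer cells of a kind and less RNA per cell cannot be told apart.

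**Figure D1:**
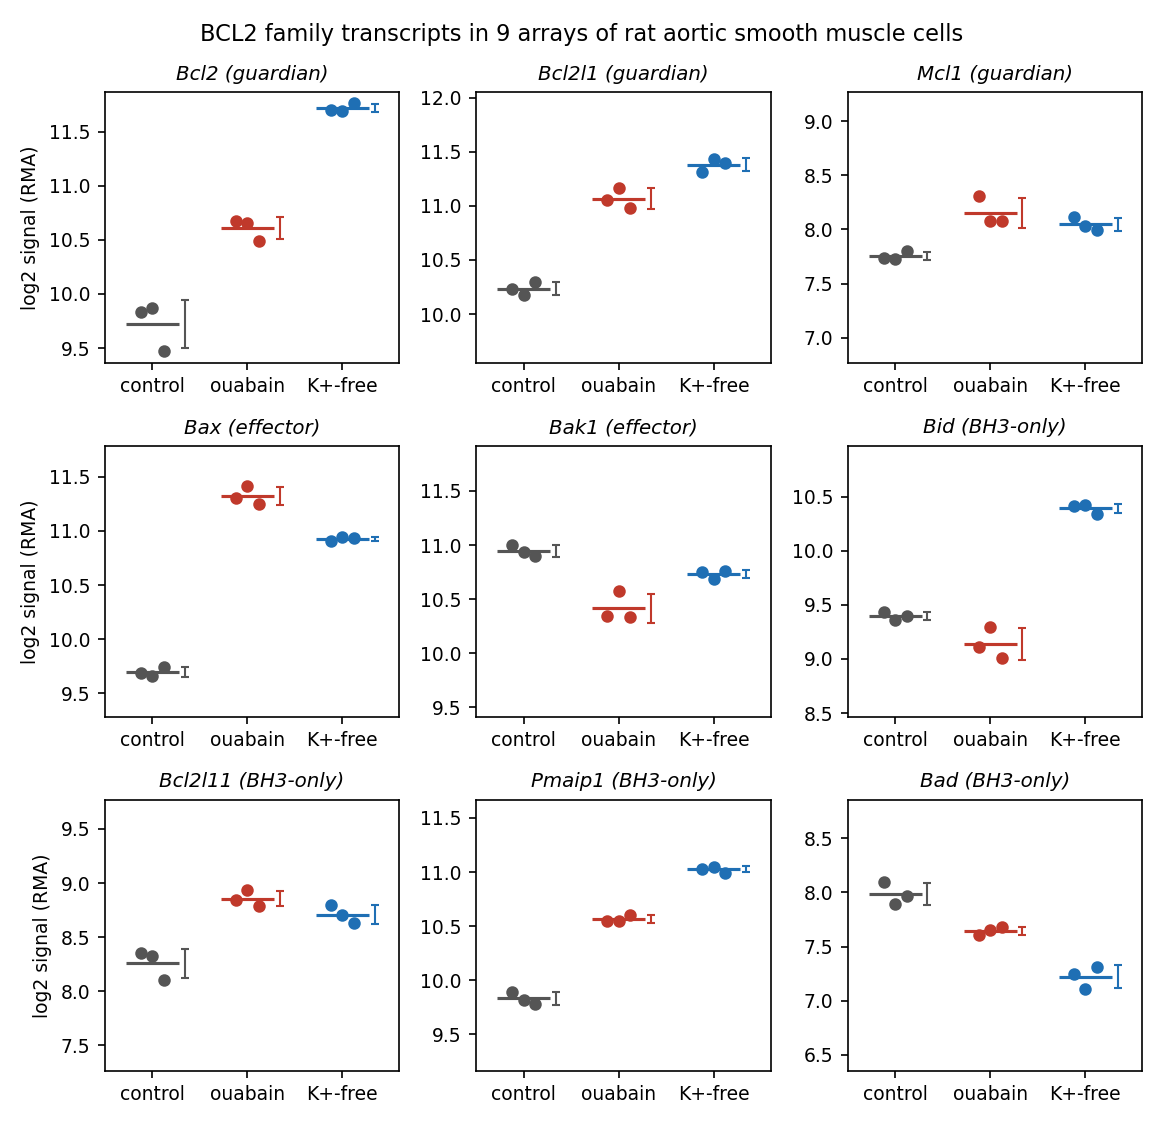
Log2 signal of the 9 measured BCL2 family members in each array of control, ouabain and K+-free medium. Points are single arrays, horizontal lines group means and the bars beside them the SD over 3 arrays; each panel has its own log2 axis of equal length, and Bcl2 spans the widest range of group means (1.99) and Mcl1 the narrowest (0.40).

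Bcl2, the founding guardian, had the widest range of group means. Its log2 signals were 9.83, 9.87 and 9.47 in control arrays, 10.68, 10.66 and 10.49 in ouabain and 11.70, 11.69 and 11.76 in K+-free medium. The groups were thus fully apart and stepped upward from control to ouabain to K+-free medium, with control replicate 3 the lowest array. Bcl2 rose by 0.88 with ouabain (SE 0.0980, limma adjusted p = 2.02e-05) and by 1.99 without external K+ (adjusted p = 3.03e-08), a fold of 3.98. K+-free medium exceeded ouabain by 1.11 (limma adjusted p = 1.37e-05). Without control replicate 3 the rises were 0.75 and 1.86.

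Bcl2l1 codes for Bcl-x, the guardian that binds both effectors. Its brighter probe set read 10.24, 10.17 and 10.30 in control arrays, 11.05, 11.17 and 10.98 in ouabain and 11.31, 11.43 and 11.40 in K+-free medium. The order was that of Bcl2, with smaller steps. Bcl2l1 rose by 0.83 with ouabain (SE 0.0634, limma adjusted p = 9.94e-07) and by 1.14 without external K+ (adjusted p = 7.05e-08), and the treatments differed by 0.31 (adjusted p = 0.00391; 0.0596 by the methods' t-test). The second probe set was much dimmer, at 7.53 to 7.57 in control arrays, 8.06 to 8.12 in ouabain and 8.50 to 8.66 in K+-free medium. It rose as well, by 0.52 and 1.03, and put K+-free medium further above ouabain (0.50, limma adjusted p = 5.59e-05).

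Mcl1, a guardian whose mRNA and protein are both short-lived, gave 7.74, 7.73 and 7.80 in control arrays, 8.31, 8.07 and 8.08 in ouabain and 8.12, 8.03 and 8.00 in K+-free medium. Every treated array lay above every control array, and the treatments overlapped each other. Its rises were the smallest of the family, at 0.40 in ouabain (SE 0.0695, limma adjusted p = 0.000717; 0.24 and not called with arrays centred on B2m) and 0.29 without external K+ (adjusted p = 0.00517). The latter call was lost on centring by reference genes (0.23), on centring by B2m (0.13) and without K_Free replicate 1 (0.26), all under the fold limit, which is 0.263 on this scale. Between the treatments the difference was -0.10, with a 95% confidence interval from -0.26 to 0.05. All 3 measured guardians thus passed the test upward in both treatments, Mcl1 with the exceptions just given.

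Bax, the effector that moves from the cytosol to the mitochondrion, had the largest rise of the family in ouabain. Its brighter probe set read 9.68, 9.66 and 9.75 in control arrays, 11.30, 11.41 and 11.25 in ouabain and 10.91, 10.94 and 10.94 in K+-free medium. Here ouabain stood highest and K+-free medium between it and control, with no overlap. Bax rose by 1.63 with ouabain (SE 0.0553, limma adjusted p = 4.01e-09), a fold of 3.09, and by 1.23 without external K+ (adjusted p = 1.65e-08), and the difference of K+-free medium from ouabain was -0.39 (adjusted p = 0.000357). The other probe set of Bax kept that order with smaller rises of 1.26 and 0.85, from 9.64 to 9.75 in control arrays to 10.85 to 11.01 in ouabain and 10.52 to 10.57 in K+-free medium.

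Bak1, the effector that resides on the mitochondrion, went the other way. Its signals were 11.00, 10.94 and 10.90 in control arrays, 10.35, 10.57 and 10.33 in ouabain and 10.75, 10.69 and 10.76 in K+-free medium. All treated arrays lay below the controls, those of ouabain lowest. Bak1 fell by 0.53 in ouabain (SE 0.0691, limma adjusted p = 7.58e-05). In K+-free medium the difference of -0.21 (95% confidence interval -0.37 to -0.06, adjusted p = 0.0269) was under the fold limit; it passed after repeated quantile normalization (-0.28) and with centring on reference genes (-0.28) or B2m (-0.37). K+-free medium exceeded ouabain by 0.32 (limma adjusted p = 0.00656; 0.0981 by the methods' t-test).

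**Figure D2:**
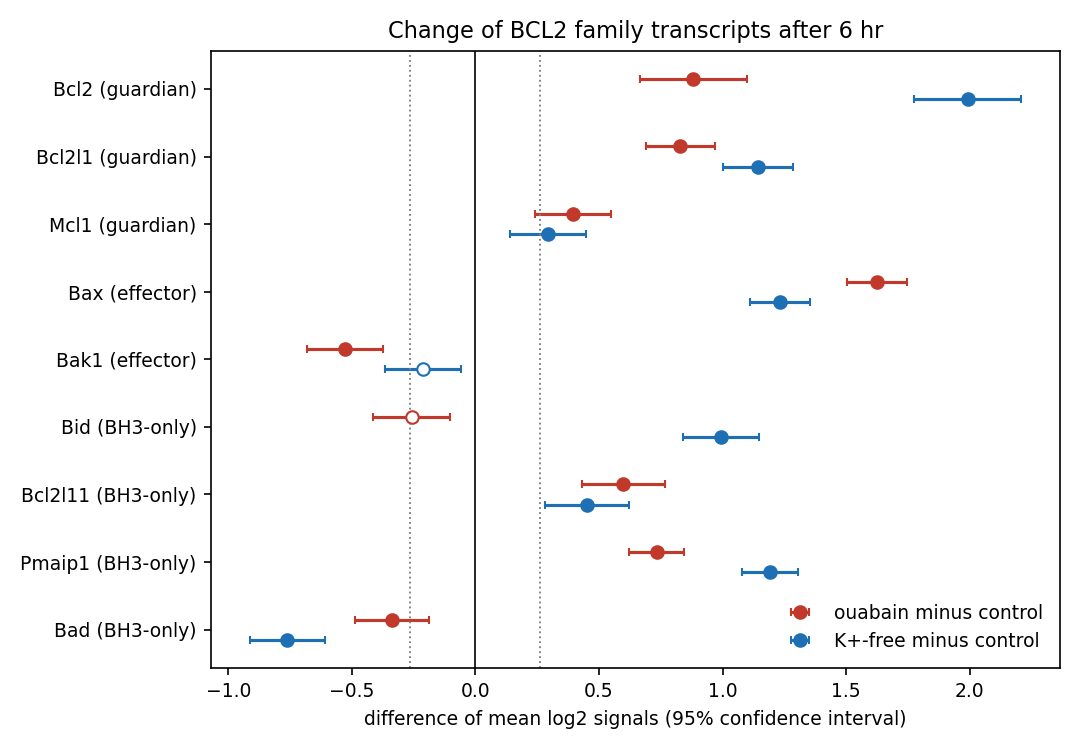
Difference of mean log2 signals from control for each measured BCL2 family member in ouabain (red) and K+-free medium (blue), with 95% confidence intervals from limma. Filled points passed the test and open points did not; dotted lines mark the 1.2-fold limit. Bcl2 reaches 1.99 in K+-free medium and Bax 1.63 in ouabain; the filled points of Mcl1 in both media and of Bad in ouabain lose the call under some scaling of the arrays, and the open points gain it under others.

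Among the BH3-only genes, Bid differed most between the treatments. Bid is cut by caspase 8 after death receptors are engaged, and its truncated form carries the signal to the mitochondrion. Its signals were 9.43, 9.36 and 9.40 in control arrays, 9.11, 9.30 and 9.01 in ouabain and 10.41, 10.42 and 10.34 in K+-free medium. The K+-free arrays stood far above all others, while those of ouabain lay just below the controls. Bid rose by 0.99 in K+-free medium (SE 0.0701, limma adjusted p = 4.54e-07), and K+-free medium exceeded ouabain by 1.25 (adjusted p = 5.17e-07). In ouabain the difference of -0.26 (95% confidence interval -0.41 to -0.10, adjusted p = 0.0115) came to a fold just under the limit, and it passed with centring on reference genes (-0.31) or B2m (-0.41), without Control replicate 2 (-0.27) and without Ouabain replicate 2 (-0.34).

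Pmaip1, or Noxa, codes for a protein that binds Mcl1. It read 9.90, 9.82 and 9.78 in control arrays, 10.55, 10.55 and 10.61 in ouabain and 11.03, 11.05 and 10.99 in K+-free medium. The 3 groups formed separate steps in the order seen for Bcl2. Pmaip1 rose by 0.73 with ouabain (SE 0.0509, limma adjusted p = 4.62e-07) and by 1.19 without external K+ (adjusted p = 1.15e-08), with 0.46 between the treatments (adjusted p = 7.01e-05).

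Bcl2l11 codes for Bim, which binds all guardians. Its signals were 8.35, 8.32 and 8.10 in control arrays, 8.84, 8.93 and 8.79 in ouabain and 8.80, 8.70 and 8.63 in K+-free medium. Treated arrays all lay above the controls, but the treatments touched each other. Bcl2l11 rose by 0.60 with ouabain (SE 0.0766, limma adjusted p = 6.30e-05) and by 0.45 without external K+ (adjusted p = 0.000529), and the difference of -0.15 between K+-free medium and ouabain did not pass (95% confidence interval -0.32 to 0.02).

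Bad binds Bcl2 and Bcl-x unless it is phosphorylated by survival kinases such as Akt1. On the deposited scale it was the only member called lower in both treatments. It gave 8.10, 7.90 and 7.96 in control arrays, 7.61, 7.65 and 7.68 in ouabain and 7.25, 7.11 and 7.31 in K+-free medium. The steps ran downward without overlap. Bad fell by 0.34 with ouabain on the log2 scale (SE 0.0685, limma adjusted p = 0.00198), a call lost after repeated quantile normalization (-0.14). Without external K+ it fell by 0.76 (limma adjusted p = 3.27e-06), and the difference of K+-free medium from ouabain was -0.42 (adjusted p = 0.000935). Bcl2l11 and Bad both held the FOXO letters, and whether these letters had a part in the change of either gene was not tested.

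When the treatments were set against each other directly, 5 members were higher in K+-free medium (Bcl2, Bcl2l1, Pmaip1, Bid and Bak1), 2 were lower (Bax and Bad), and Mcl1 and Bcl2l11 did not pass. The median over the 9 members was 0.31, against -0.01 over all probe sets, of which 8.45% were higher and 7.97% lower. For 7 members the arrays of the treatments did not overlap, as for 32.4% of probe sets. Bcl2, Bcl2l1 and Pmaip1 shared the pattern of rises in both media that were larger in K+-free medium. Bax alone of the measured members rose in both and was lower in K+-free medium than in ouabain.

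Bcl2 and Bax, the classical guardian and effector pair, therefore changed by unequal amounts, and in opposite orders in the 2 media. The difference of their log2 signals was taken within each array, where its level depends on the probes and only its change can be read. It ran from -0.28 to 0.21 in control arrays, from -0.77 to -0.63 in ouabain and from 0.75 to 0.82 in K+-free medium. Relative to control it shifted by -0.74 in ouabain, toward Bax, and by 0.76 in K+-free medium, toward Bcl2, which put the treatments 1.503 apart. The groups did not overlap, and the exact two-sided permutation test gave p = 0.1 for each comparison, the smallest value that 20 assignments of 3 and 3 arrays allow. With the other probe set of Bax the shifts were -0.38 and 1.14, a change of more than 1.5-fold in the size of each, and the distance between treatments was 1.52.

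**Figure D3:**
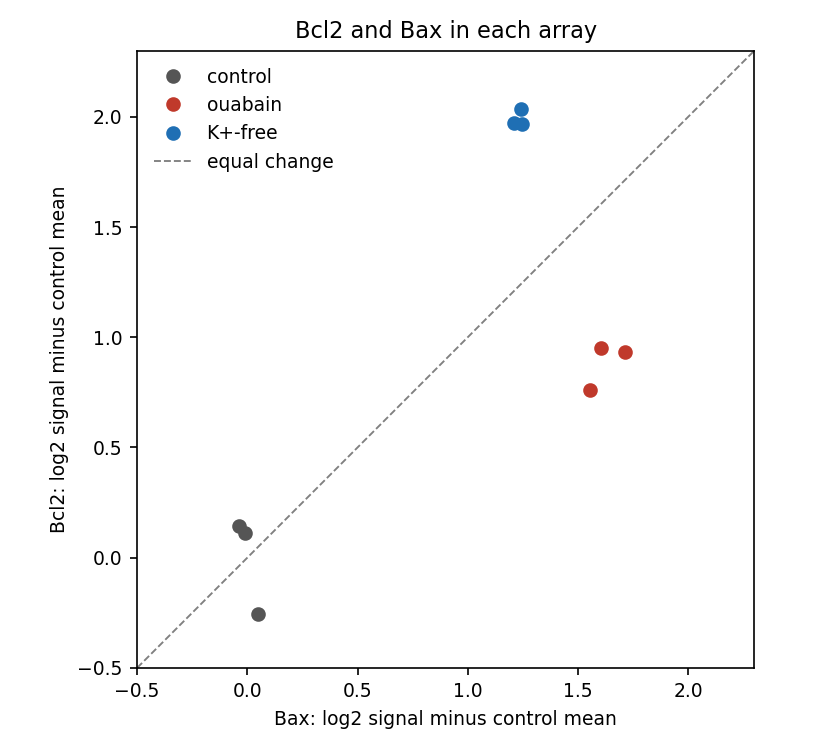
Log2 signal of Bcl2 against that of Bax in each of the 9 arrays, each gene relative to its mean in control arrays; points on the dashed line would have changed equally. The ouabain arrays lie below the line, where Bax rose more than Bcl2, and the K+-free arrays above it, where Bcl2 rose more than Bax.

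For the 3 members with the widest range of group means, the genes with the most similar course were sought among 14323 others, by root mean square distance over the 9 arrays after each gene was centred on its own mean. Nearest to Bcl2 were the immediate early gene Ier2 (0.108), Cttnbp2 (0.135) and Hapln3 (0.143). Nearest to the brighter probe set of Bax were the hexokinase Hk2 (0.0784), the clock repressor Cry2 (0.0809) and the AMP deaminase Ampd1 (0.0941). The other probe set of Bax, with smaller rises of 1.26 and 0.85, was not used in this search, so these neighbours hold for 1 probe set. Bid was closest to Tapbp (0.0586), which loads peptides on class I molecules, then Zhx2 (0.0709) and Arrdc3 (0.0819).

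The genes around the 9 members were refitted under the 4 other scalings and not under the remaining alternatives. Beside the counts of these lists and of the markers stand the shares over all probe sets. In ouabain 15.8% were higher and 16.8% lower, and in K+-free medium 16.1% and 17.9%. Centring on B2m favours falls throughout, with 2166 of 27342 probe sets higher and 6223 lower in ouabain, and 2375 and 7059 in K+-free medium. Of 13 other BCL2 family genes 12 were measured; with ouabain 1 rose and 3 fell, without external K+ 4 rose and 3 fell, and the medians were 0.11 and 0.13. With centring on B2m no gene rose in ouabain and 2 rose in K+-free medium, and the medians became -0.04 and -0.03. Bcl2l12 fell with both treatments (-1.02 in ouabain, -0.84 in K+-free medium), as did the mitophagy receptor Bnip3, a known target of hypoxia signalling (-0.84 and -0.85). Bcl2l13 rose in K+-free medium (0.85) and stood at 0.22 in ouabain, under the fold limit; of the 4 other scalings, repeated quantile normalization put it past the limit (0.35). The BH3-only gene Bmf fell by 0.44 in K+-free medium, a call lost under repeated quantile normalization (-0.25), and differed by -0.10 in ouabain. Bok, an effector-like relative of Bax singled out after its values were seen, was lower in ouabain (-0.42; -0.22 and not called under repeated quantile normalization) and higher in K+-free medium (0.43), with 0.85 between them (limma adjusted p = 1.90e-06).

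Downstream of the mitochondrion, 11 of 14 genes of the caspase step were measured. In ouabain 1 rose and 4 fell (median -0.15), and in K+-free medium 3 rose and 5 fell (median -0.12). With centring on B2m these counts were 0 and 6 (median -0.30), and 2 and 6 (median -0.28). Casp9, the initiator caspase of this pathway, fell by 1.498 with ouabain (limma adjusted p = 8.90e-09) and its difference without external K+ was -1.57 (adjusted p = 4.54e-09). The executioner Casp6 fell too (-0.84 and -1.46). Birc3, a ubiquitin ligase of the inhibitor of apoptosis family, rose by 3.39 in K+-free medium (limma adjusted p = 2.35e-10), while its ouabain difference of -0.15 did not pass; of the 4 other scalings, centring on B2m gave a call (-0.30). The related ligase Birc2 rose by 1.12 in K+-free medium and was at 0.20 in ouabain, which did not pass; of the 4 other scalings, repeated quantile normalization gave a call (0.39). Apaf1, the caspase 9 activator, named after its values were seen, was lower in K+-free medium than in ouabain (-0.69, limma adjusted p = 8.75e-06), with a difference from control of -0.39 in the former and 0.30 in the latter, where the call was lost with centring on reference genes (0.25) or B2m (0.15).

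All 11 partners at the mitochondrial and reticulum membranes were measured, and 1 rose and 4 fell in each treatment (medians -0.16 in ouabain and -0.12 in K+-free medium). Bag1, a co-chaperone that binds Bcl2, fell in both media (-0.33 in ouabain, -0.82 in K+-free medium). The calcium release channel Itpr2 fell as well (-0.64 and -0.71), and so did the outer membrane channel Vdac3 (-0.56 and -0.61). The stress co-chaperone Bag3 rose in ouabain (0.61) and stood at 0.20 in K+-free medium. With centring on B2m, 6 of the 11 fell in each treatment. Under that scaling 6223 of all 27342 probe sets fell in ouabain and 7059 in K+-free medium.

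Of 13 kinases and turnover factors that act on the family, 9 were measured. In ouabain 3 rose and 2 fell (median 0.04), and in K+-free medium 4 rose and 2 fell (median 0.18). With centring on B2m these counts were 2 and 3 (median -0.11), and 2 and 2 (median 0.02). Pim1, a survival kinase, rose by 0.88 and by 1.71, and the JNK gene Mapk8 by 0.66 and by 0.59. Akt1 fell by 0.78 in K+-free medium; its fall of -0.27 in ouabain came under the fold limit with centring on array medians (-0.26). Prkaca, the catalytic subunit of protein kinase A, fell by 0.47 in K+-free medium and differed by -0.03 in ouabain.

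A group of transcription factors and their readouts around the family had 13 measured genes. In ouabain 9 rose and 2 fell (median 0.55), and in K+-free medium 8 rose and 1 fell (median 0.72). With centring on B2m these counts were 8 and 2, and 8 and 1. Mdm2, a ubiquitin ligase, rose by 1.57 with ouabain (limma adjusted p = 2.78e-09) and by 1.95 without external K+ (adjusted p = 4.11e-10). Jun rose by 1.47 and by 1.84, and the early growth response factor Egr1 by 0.57 and by 2.36. Trib3, a target of the amino acid response, fell (-1.36 and -1.23).

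**Figure D4:**
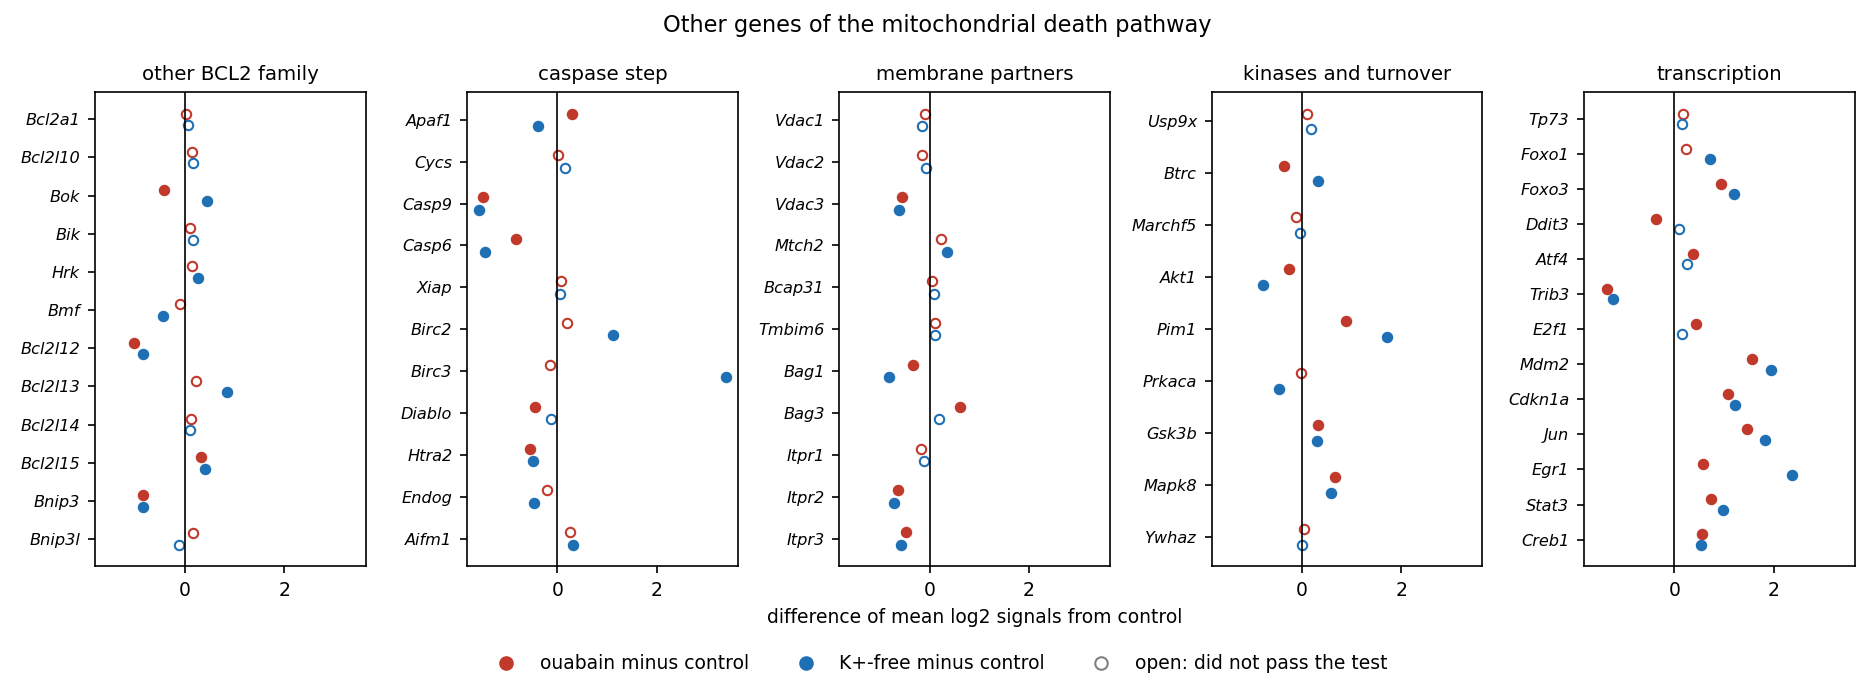
Difference of mean log2 signals from control in ouabain (red) and K+-free medium (blue) for the measured genes of 5 groups around the BCL2 family. Filled points passed the test and open points did not, on the deposited scale, and some of the smaller filled points lose the call under another scaling of the arrays; Birc3 in K+-free medium (3.39) and Casp9 in both media (-1.498 and -1.57) stand farthest out in the caspase group.

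Markers of cell identity were read on the same arrays, whose medians lay between 6.76 and 6.80. The 5 measured of 6 smooth muscle markers had a mean log2 signal of 10.86 to 10.89 in control arrays, 10.19 to 10.33 in ouabain and 10.33 to 10.35 in K+-free medium, all above the array medians; 4 fell in ouabain and 3 in K+-free medium, including Lmod1 (-1.61 and -1.48). The 2 measured of 5 endothelial markers were below the array medians in every group, with means of 5.62 to 5.66, 5.82 to 5.86 and 5.81 to 5.86 in control, ouabain and K+-free arrays. Of these, Cdh5 rose (0.40 and 0.29), calls that were lost with centring on B2m in both media and, in K+-free medium, also with repeated quantile normalization and centring on reference genes, and Tek did not pass. Fibroblast markers, 4 of 4 measured and 2 of them below the array medians, averaged 8.18 to 8.28, 8.31 to 8.40 and 8.72 to 8.73. None passed in ouabain and 2 rose in K+-free medium, Pdgfra by 1.30 and Lum by 0.29. The call of Lum was lost with repeated quantile normalization (0.26) and with centring on reference genes (0.22) or B2m (0.13). Dcn gained a call in K+-free medium with centring on array medians (0.27). Macrophage markers, 5 of 5 measured, averaged 6.21 to 6.31, 6.86 to 6.91 and 6.63 to 6.73, and 3 rose in each treatment (2 with centring on B2m). Cd68 rose (1.29 and 0.94), as did Cd14 (1.27 in ouabain, and 0.43 in K+-free medium, where the call was lost with centring on B2m) and Csf1r (0.33 in ouabain, lost with centring on B2m or repeated quantile normalization, and 0.53 in K+-free medium). Csf1r, Ptprc and Adgre1 were below the array medians in every group, and Cd68 was below them in control. Ptprc and Adgre1 did not pass in either treatment. The part of these shifts in the changes of the BCL2 family was not tested.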

How the data were processed

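Total RNA from 9 cultures of quiescent rat aortic smooth muscle cells, 3 each for Control, Ouabain and K_Free, was measured on the Affymetrix Rat Gene 1.0 ST platform. The authors deposited log2 signals of 27342 probe sets; the sample labels name Partek and RMA, without versions, and the study's methods also describe another normalization, so the exact settings remain unstated in these sources. Groups came from the sample labels. Of the probe sets, 15097 carry 1 symbol in the platform annotation, 323 several and 11922 none; other lists were matched by current RefSeq symbol.

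limma 3.58.1 in R 4.3.3 fitted 1 mean per group to the 9 arrays together, with moderated variances (4.59 prior and 6 residual degrees of freedom), and p-values were adjusted by Benjamini-Hochberg across all probe sets. The script was tested on simulated data. Groups of 3 arrays limit the precision.

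Members and lists were chosen with earlier results of these data known. All members were described, with up to 4 genes of the largest absolute change against control in each list and the 3 nearest genes of the 3 members with the widest range. Promoters were read from RefSeq tables with Python 3.11.15; a planned search of member proteins was not run, and 1 gene and 1 motif are not reported here. Alternatives covered scaling, filters, moderation, tests, fold limits, probe sets, a replicate block and leaving out each array; those with the dimmer probe sets of Bax and Bcl2l1 were chosen after seeing the data.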

Additional observations from a re-analysis of the deposited data

How the results depend on the processing

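Under the alternatives tried no member changed direction, and 607 values of single members kept their side of the threshold, while 7 lost and 7 gained a call. The lost and gained calls concern Mcl1, Bad, Bid, Bak1 and Bcl2l1 and are given beside them above. Many alternatives, such as the filters, the block and the other tests, leave a member's difference as it was and alter only its error or adjusted p. Direction could not change there, and the number of kept values counts these repeats. A fold limit of 1.5 in place of 1.2, which is stricter in itself, took the members called from 8 to 5 in ouabain. These were 5 higher and 0 lower, so that neither fall was called. The count went from 8 to 6 in K+-free medium (5 higher and 1 lower) and from 7 to 2 between the treatments. At 1.5, 1277 of all 27342 probe sets were higher and 2647 lower in ouabain, and 1578 and 2740 in K+-free medium. Between the treatments 647 were higher in K+-free medium and 502 lower. Leaving out each array in turn gave 8 to 9 members called in ouabain, 7 to 8 in K+-free medium and 7 between the treatments, and shifts of Bcl2 relative to Bax from -0.90 to -0.65, from 0.61 to 0.85 and from 1.48 to 1.55. Over all probe sets at the 1.2 limit, ouabain gave 4312 rises and 4583 falls and K+-free medium 4391 and 4890. With centring on reference genes these were 3174 and 5077, and 3217 and 5588. With centring on B2m they were 2166 and 6223, and 2375 and 7059. The methods' t-test called 5 members between the treatments, where the main fit called 7. Over all 27342 probe sets, that test put K+-free medium above ouabain for 1528 and below it for 1368. In the main fit these counts were 2311 and 2180.

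The replicate number as a block left the members called at 8, 8 and 7, and gave an exact permutation p of 0.25 for each shift of Bcl2 relative to Bax, -0.74, 0.76 and 1.503, the smallest that 3 pairs allow. Deviations of same-numbered arrays correlated at -0.05 to 0.31 over 9 pairs and those of other arrays at -0.28 to 0.16 over 18. The study's methods state that controls and treatments ran side by side within each experiment. Neither they nor the labels say that the replicate numbers mark those experiments. The main fit therefore did not use the numbers as pairs. These correlations overlap and cannot decide whether the numbers mark experiments. With 3 arrays a group, differences near the fold limit are not settled.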
